A study of Mus musculus with 6 samples.

Results

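The genes described here take part in the sensing of double-stranded RNA and in the interferon response, which were followed because a short hairpin RNA is itself a double-stranded RNA. They are 38 mouse genes chosen by name: sensors of double-stranded RNA, interferon receptors, the transcription factors that act downstream of them, and genes that interferon induces. Of the 38 symbols, 37 had a row among the 21937 of the table analysed, and Ifi27 had none. The study set 3 shNat14 libraries, from cells that received a plasmid with an shRNA against Nat14, against 3 NTC libraries, from cells that received a control shRNA. In both groups cortical progenitors were electroporated in utero at embryonic day 14.5, brains were taken at embryonic day 18.5, and live GFP-positive cortical cells were sorted for RNA sequencing. Both groups thus carried a hairpin plasmid and had been electroporated and sorted. No cells without a hairpin were analysed here, so the comparison sets one hairpin against another and not against none.

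Double-stranded RNA in the cytoplasm is detected by the helicases RIG-I and MDA5, which signal through the mitochondrial adaptor MAVS, and in endosomes by the receptor TLR3. These routes switch on type I interferon through IRF3 and IRF7. Interferon then binds the receptor IFNAR and, through a complex that includes STAT2 and IRF9, induces a large set of antiviral genes, among them the OAS, IFIT, IFITM and MX families. Hairpins transcribed from a plasmid can set off these sensors, and interferon-induced genes are therefore common checks in knockdown experiments.

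The data are the authors' own comparison of the groups, which lists for each gene its log2 fold change, its mean level in log2 CPM (counts scaled to library size), and its p-value before and after adjustment. There were no values per library, so the spread within a group, the depth of each library and any overlap of the groups cannot be shown. Nothing in the labels says that the libraries of a group came from different embryos, so the p-values cover only how these libraries vary, and that variation may be technical. A positive fold change means higher in shNat14, a direction read from the target of the hairpin, since Nat14 stood at -3.31 in the authors' deposited table. Neuronal genes were abundant, with Neurod6 at a mean log2 CPM of 11.30 and Dcx at 9.82 in the authors' deposited table. Markers of blood cells varied in level. The 4 of T and NK cells had mean log2 CPM from -3.09, the table's lowest level, for Cd3e to 0.0077 for Cd8a. The 4 of neutrophils and monocytes ran from -1.32 for Ly6c2 to 5.24 for S100a8 in the authors' deposited table. In bulk RNA, fewer cells of a type and less RNA per cell cannot be told apart.

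None of the 37 measured genes was called by the authors' own test, that is, none had an adjusted p under 0.05. Across the authors' deposited table, calls numbered 34 of 21937 genes, or 0.155%. A single gene, Cxcl10, had an unadjusted p under 0.05, which is 2.70% of the 37, beside 6.35% of the 17400 genes above the lowest level. Fold changes were positive for 21 of the 37 and negative for 16. Their median log2 fold change was 0.027, against 0.0033 over the 17400 genes. A response of equal size in both groups would not show in these values.

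**Figure D1:**
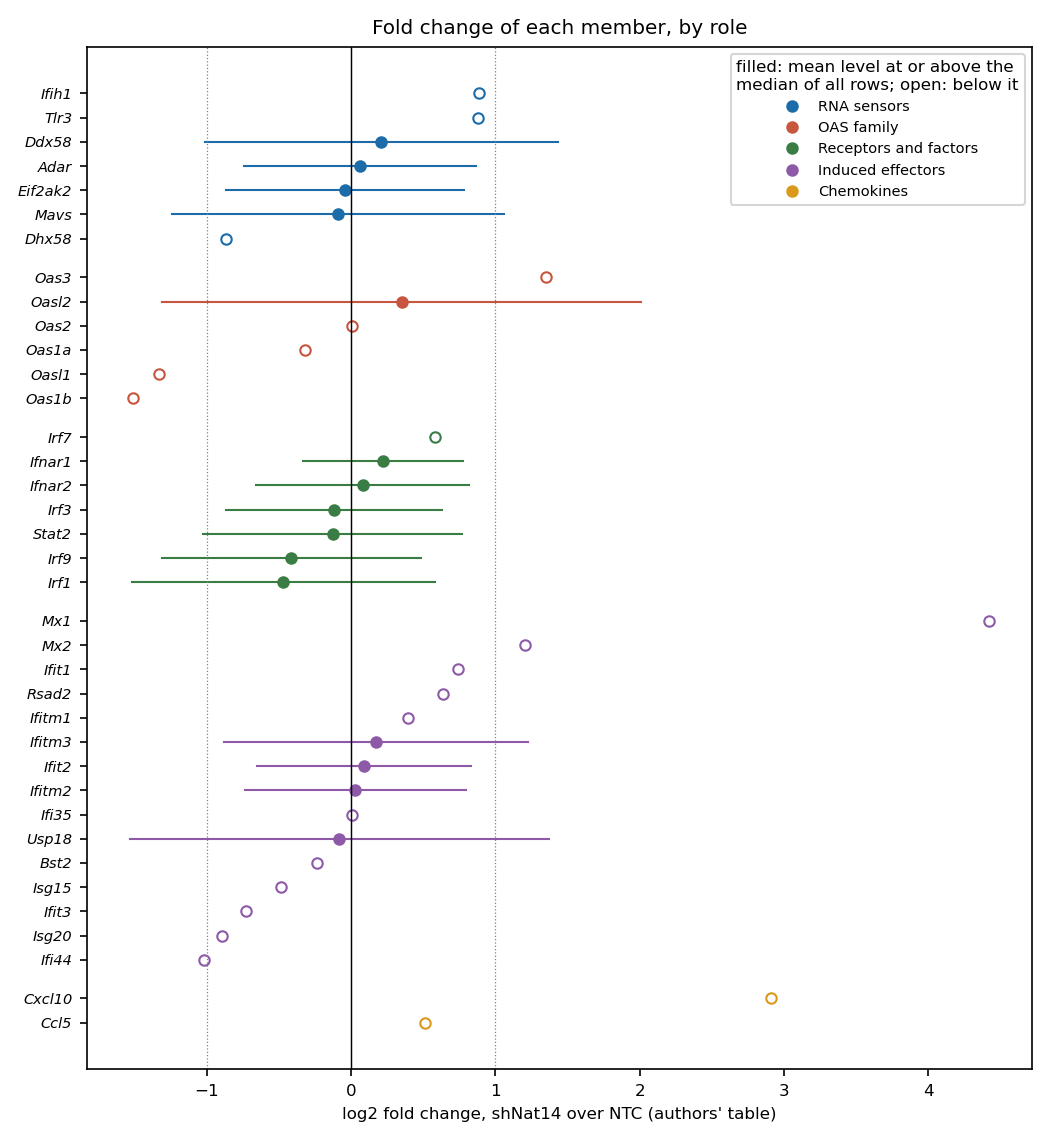
Log2 fold change of shNat14 over NTC in the authors' deposited table for the 37 measured genes, grouped by role. Filled points are genes at or above the median level, with lines for an approximate 95% interval; open points are genes below it; dotted lines mark -1 and 1. The 15 filled points lie between -0.47 and 0.35, and all 15 intervals include 0.

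How much the data can say depended on the level of each gene. The median level of all genes was a log2 CPM of 1.71, and 15 of the 37 genes reached it while 22 lay below. Among the 15, absolute log2 fold changes did not exceed 0.47 and had a median of 0.12, against 0.25 for the 10969 genes of the table that reached it. Among those 10969 genes, 370, or 3.37%, had an absolute log2 fold change over 1. Of the 22 genes below the median level, 7 had an absolute log2 fold change over 1. The share over 1 among the 6431 rows between the lowest level and the median was not computed, and the 3.37% is no measure of it. The median absolute value of the 22 was 0.81, beside 0.88 for those 6431 rows.

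The table has no standard errors, so an approximate one was read back for the 15 better-measured genes from the fold change and its p-value, as if the authors' unknown test were a normal one. It ran from 0.283 for Ifnar1 to 0.847 for Oasl2 on the log2 scale. For 7 of the 15, namely Ifnar1, Ifnar2, Irf3, Eif2ak2, Adar, Ifit2 and Ifitm2, the approximate 95% interval lay within -1 and 1, so a change of 2-fold or more in either direction was outside it. For the other 8 the interval reached past -1 or 1, and a change of 2-fold lay inside it. The standard errors of Eif2ak2, Ifitm2 and Usp18 come from a p above 0.9, where they are unstable. Genes below the median level, among them Isg15, Ifit1, Rsad2, Irf7 and Mx1, were given no interval. The same count of 7 was found with the median standard error of the 500 rows nearest in level, which was tried once the data had been seen.

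**Figure D2:**
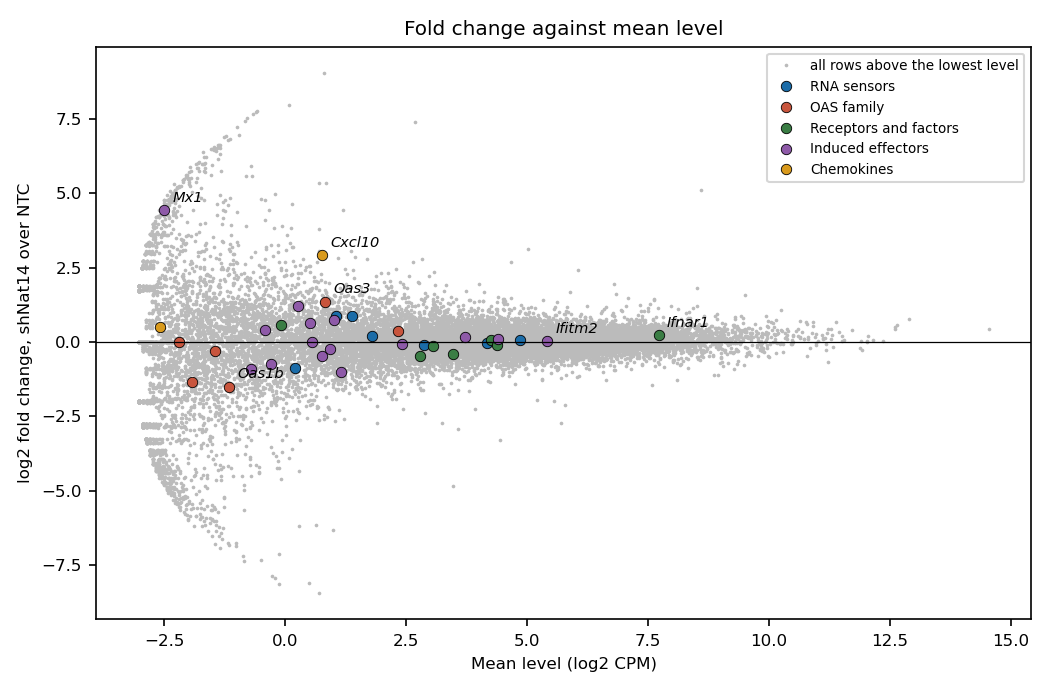
Log2 fold change of shNat14 over NTC (vertical axis) against mean level in log2 CPM (horizontal axis), both from the authors' deposited table. Grey points are the 17400 genes above the lowest level and coloured points are the 37 measured genes by role; the members lie inside the grey cloud, which widens to the left where levels are low.

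The sensors of RNA were measured at low to moderate levels. Eif2ak2, the kinase PKR, which halts translation when it binds double-stranded RNA, stood at a log2 fold change of -0.044 and a mean log2 CPM of 4.17 in the authors' deposited table (p = 0.917), with an approximate interval of -0.87 to 0.78. Adar, the enzyme that edits adenosine to inosine in double-stranded RNA and so keeps it from being sensed, stood at 0.062 and a mean log2 CPM of 4.85 in the authors' deposited table (p = 0.88, approximate interval -0.74 to 0.87). These are the 2 sensor-group genes with the tightest intervals, with approximate standard errors of 0.42 and 0.41. Both were read back from the p-values and so add no test of their own. That of Eif2ak2 comes from a p above 0.9, where it is unstable.

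Mavs, the adaptor that the cytoplasmic sensors share, was listed at -0.092 in the authors' deposited table (p = 0.875) with a wide approximate interval of -1.24 to 1.06. Ddx58, which encodes RIG-I, was listed at 0.21 with a mean log2 CPM of 1.80, just above the median of all genes, in the authors' deposited table (p = 0.738). The remaining sensors lay below that median. Ifih1, which encodes MDA5, stood at 0.89 (p = 0.232) and Tlr3, the endosomal receptor, at 0.88 (p = 0.189) in the authors' deposited table. Dhx58, the regulatory helicase LGP2, was listed at -0.87 in the authors' deposited table (p = 0.287). The related helicases Ifih1 and Dhx58 thus had values of opposite sign, neither past the threshold.

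The OAS enzymes make short 2′-5′ linked oligoadenylates when they bind double-stranded RNA, and per length of exon they were the least abundant group by median. Of the 6 family members 1 reached the median level. Oas3, the longest enzyme of the family, had the smallest p of the group, at a log2 fold change of 1.35 and a mean log2 CPM of 0.83 in the authors' deposited table (p = 0.0632). Its relatives had values of either sign. Oas1b stood at -1.51 (p = 0.354), Oasl1 at -1.33 (p = 0.601) and Oas1a at -0.32 (p = 0.909), all at a mean log2 CPM of -1.16 or less in the authors' deposited table. Oas2 had a fold change of 0.0064 (p = 1) at a mean log2 CPM of -2.19 in the authors' deposited table. Oasl2, an OAS-like gene and the most abundant of the 6, was listed at 0.35 in the authors' deposited table (p = 0.679), with the widest approximate interval of all 15, from -1.31 to 2.01. Oas1a and Oas1b belong to a cluster of similar genes, and reads shared within it would make their values uncertain.

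The interferon receptor and its transcription factors were the best measured group, with 6 of 7 at or above the median level. Ifnar1, a chain of the type I interferon receptor, had the highest mean level of the 37 before scaling to length, a log2 CPM of 7.72, and its log2 fold change was 0.22 in the authors' deposited table (p = 0.439, approximate interval -0.34 to 0.77). Its partner chain Ifnar2 was listed at 0.08 in the authors' deposited table (p = 0.831, approximate interval -0.66 to 0.82). Both chains were therefore measured with a change of 2-fold outside the interval.

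Irf3, a factor that MAVS and TLR3 signalling activates, had -0.12 in the authors' deposited table (p = 0.756, approximate interval -0.87 to 0.63). The factors that interferon itself activates or induces had values on both sides of 0, and none passed the test. Irf9, the DNA-binding part of the interferon-activated complex, stood at -0.42 (p = 0.364), Stat2, its partner, at -0.13 (p = 0.779) and Irf1 at -0.47 (p = 0.38) in the authors' deposited table. Irf7, the factor that amplifies interferon production, was low at a mean log2 CPM of -0.075 and had 0.58 in the authors' deposited table (p = 0.666).

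Interferon-induced effectors split in direction. Of the 15 measured, 9 had positive and 6 negative fold changes, with a median of 0.027. Mx1, a dynamin-like antiviral GTPase, had the largest value of all 37, 4.42, but at a mean log2 CPM of -2.50, close to the lowest level of the table, and with p = 0.172 in the authors' deposited table. Its paralog Mx2 stood at 1.20 and a mean log2 CPM of 0.27 in the authors' deposited table (p = 0.243). Many inbred mouse strains carry an inactive Mx1 gene, and the labels do not give the strain.

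Genes of the IFIT family, whose proteins bind foreign RNA ends or hold back translation, lay on both sides of 0. Ifit1 stood at 0.74 (p = 0.536) and Ifit3 at -0.73 (p = 0.549) in the authors' deposited table, both below the median level. Ifit2 was the exception in abundance, with a mean log2 CPM of 4.41, and its log2 fold change was 0.09 in the authors' deposited table (p = 0.814, approximate interval -0.65 to 0.83). Ifit3 has the near-identical copy Ifit3b, which had no row under that symbol, so the value of Ifit3 is uncertain.

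The IFITM genes encode small membrane proteins that block virus entry, and 2 of the 3 reached the median level. Ifitm2 stood at 0.027 at a mean log2 CPM of 5.42 (p = 0.944) and Ifitm3 at 0.17 at 3.72 (p = 0.748) in the authors' deposited table. The approximate interval was -0.74 to 0.79 for Ifitm2 and -0.88 to 1.23 for Ifitm3, and the latter held a change of 2-fold. Ifitm1 was low, with 0.39 at a mean log2 CPM of -0.42 in the authors' deposited table (p = 0.759). These genes are close paralogs, and their values carry the same uncertainty about shared reads.

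Among the other effectors, Isg15, a ubiquitin-like protein joined to other proteins during the response, was listed at -0.48 in the authors' deposited table (p = 0.544). Usp18, the protease that removes ISG15 and damps interferon signalling, had -0.083 in the authors' deposited table (p = 0.911) with an approximate interval of -1.54 to 1.37. Rsad2, the antiviral enzyme viperin, stood at 0.63 (p = 0.594) and Bst2, the membrane tether tetherin, at -0.24 (p = 0.722) in the authors' deposited table. Ifi44 had -1.02 (p = 0.28), Isg20, an RNA exonuclease, -0.90 (p = 0.26) and Ifi35 0.0069 (p = 1) in the authors' deposited table. For Ifi27, which had no row under that symbol, RefSeq lists Ifi27l1 as a synonym, and that row stood at -0.32 and a mean log2 CPM of 3.80 in the authors' deposited table (p = 0.54). The name Ifi27 is also a synonym of Ifi27l2a, so neither row was counted as the gene.

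The chemokines gave the one unadjusted p under 0.05. Cxcl10, which draws activated T cells and is induced by both interferon and inflammatory signals, stood at a log2 fold change of 2.91 and a mean log2 CPM of 0.77 in the authors' deposited table (p = 0.0165, adjusted p = 0.763). It is the value that stood highest among members with a level above 1 CPM, but it did not pass the adjusted threshold. Exons of Cxcl10 overlap those of Art3 on the opposite strand in GENCODE M21, and no source used here says whether counting used strand, so reads of the pair may not be told apart. Art3 itself was listed at 0.94 in the authors' deposited table (p = 0.231). Ccl5, the other chemokine, lay at a mean log2 CPM of -2.58 and had 0.51 in the authors' deposited table (p = 1).

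Exons of 8 of the 37 genes overlap those of another protein-coding gene in GENCODE M21, on either strand. Besides Cxcl10 they are Adar, Ifitm2, Ifnar2, Irf1, Irf3, Irf7 and Irf9. Irf9 shares its strand with Rnf31, which was listed at 0.16 in the authors' deposited table (p = 0.764). Ifitm2 and Ifnar2 also share their strand with the gene they overlap, Gm45717 and Gm21970. The effect of these overlaps was not tested.

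Promoters are shown for 4 of these genes because interferon acts on them through a known element, the interferon-stimulated response element, and because their fold changes lie on both sides of 0: Cxcl10 at 2.91, Ifit1 at 0.74, Eif2ak2 at -0.044 and Isg15 at -0.48 in the authors' deposited table. Each sequence is from RefSeq, build GRCm38.p6, and runs 5′ to 3′ on the strand of the gene from 250 bases before its start to 50 bases after. Capitals mark matches to the core of the element, GAAANNGAAA, or its reverse complement, including overlapping matches. Cxcl10 lies at chr5:92348840-92349139 on the minus strand, Ifit1 at chr19:34640639-34640938 on the plus strand, Eif2ak2 at chr17:78882523-78882822 on the minus strand and Isg15 at chr4:156200769-156201068 on the minus strand.
Cxcl10: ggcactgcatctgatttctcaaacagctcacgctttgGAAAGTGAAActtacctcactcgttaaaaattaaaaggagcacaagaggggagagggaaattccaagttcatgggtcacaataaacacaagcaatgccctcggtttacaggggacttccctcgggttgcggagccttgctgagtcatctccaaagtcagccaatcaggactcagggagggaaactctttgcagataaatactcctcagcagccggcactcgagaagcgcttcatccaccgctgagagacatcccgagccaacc
Ifit1: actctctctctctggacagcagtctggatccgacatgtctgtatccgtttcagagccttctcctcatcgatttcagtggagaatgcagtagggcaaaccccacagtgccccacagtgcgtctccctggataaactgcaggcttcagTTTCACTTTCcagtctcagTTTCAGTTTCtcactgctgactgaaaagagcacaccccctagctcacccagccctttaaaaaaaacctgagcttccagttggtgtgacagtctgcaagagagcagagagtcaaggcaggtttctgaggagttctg
Eif2ak2: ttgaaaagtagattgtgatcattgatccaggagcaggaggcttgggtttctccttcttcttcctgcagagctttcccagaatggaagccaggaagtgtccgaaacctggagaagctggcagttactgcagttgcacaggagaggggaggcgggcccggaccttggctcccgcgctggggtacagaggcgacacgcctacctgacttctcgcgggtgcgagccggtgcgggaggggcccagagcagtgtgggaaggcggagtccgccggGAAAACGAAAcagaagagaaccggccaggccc
Isg15: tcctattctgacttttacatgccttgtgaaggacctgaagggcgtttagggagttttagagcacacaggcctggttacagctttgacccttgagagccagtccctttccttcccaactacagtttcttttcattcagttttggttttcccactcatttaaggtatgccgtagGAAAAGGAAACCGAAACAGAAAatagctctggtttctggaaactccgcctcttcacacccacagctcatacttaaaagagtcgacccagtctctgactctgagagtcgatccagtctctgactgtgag

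Cxcl10 and Eif2ak2 hold 1 match each, Ifit1 holds 2 on the opposite strand and Isg15 holds 3 that overlap in a single run. Of the 38 genes, 30 were found by symbol in the RefSeq promoter table and searched. Dhx58, Oas2, Oas1b, Mx1, Mx2, Usp18, Ccl5 and Ifi27 were not searched. At least 1 match was held by 14 of the 30, or 46.7%, against 3.99% of all 27025 genes with a promoter there. The 14 are Bst2, Cxcl10, Ddx58, Eif2ak2, Ifih1, Ifit1, Ifit3, Ifitm2, Ifitm3, Isg15, Oas1a, Oas3, Rsad2 and Stat2. Known interferon-induced genes were among those chosen by name, so this share describes the list and not the experiment. With a match, log2 fold changes in the authors' deposited table ran from -0.73 to 2.91 with a median of 0.10 and 8 of 14 positive. Without a match they ran from -1.33 to 0.88 in the authors' deposited table, with a median of 0.034 and 9 of 16 positive.

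Levels were set side by side per length, as log2 CPM per kilobase of the union of exons in GENCODE M21. Ifitm2 stood highest at 6.03, above Ifnar1 at 5.15 and Ifitm3 at 4.28. A middle group, Irf3 at 2.59, Ifnar2 at 2.53 and Ifit2 at 2.43, lay within 0.2 of each other, and Adar at 1.83 and Eif2ak2 at 1.82 were nearly equal. At the low end, Mx1 stood at -4.42, Oas2 at -4.34 and Oasl1 at -3.31. Whether neighbours in this order differ beyond their spread cannot be tested without values per library.

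**Figure D3:**
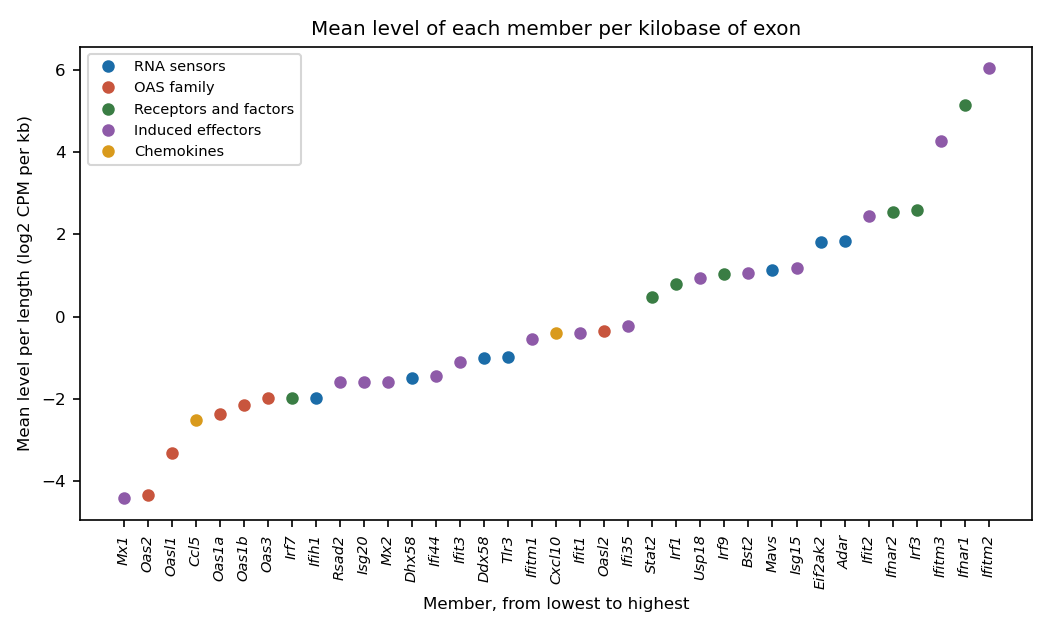
Mean level per length, in log2 CPM per kilobase of exon (vertical axis), for each of the 37 measured genes ordered from lowest to highest (horizontal axis), coloured by role. Ifitm2, Ifnar1 and Ifitm3 lie above 4, and 5 of the 6 OAS genes are among the lowest 7.

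The interferon genes with a row were at or near the bottom of the table. Of 17 interferon genes with a row, 13 sat at the lowest level, among them Ifnb1 and Ifna4. The other 4, Ifng, Ifnk, Ifnz and Ifna13, had mean log2 CPM from -3.01 to -2.18 in the authors' deposited table, none with an unadjusted p under 0.05. Ifnl2 and Ifnl3 had no row. Interferon genes other than Ifnb1, Ifna4, Ifnl2 and Ifnl3 were looked up after the values were seen.

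Further genes of the pathway were described from 2 lists. Of 27 further signalling genes described here, 24 had a row, 2 of these at the lowest level, none of these 24 was called and 1 had an unadjusted p under 0.05. That gene was Ifngr1, a chain of the interferon gamma receptor, at -0.84 and a mean log2 CPM of 4.44 in the authors' deposited table (p = 0.0282, adjusted p = 0.905). Next in p was Ticam1, the adaptor TRIF that TLR3 uses, at 1.35 in the authors' deposited table (p = 0.0743). Fold changes of the 22 genes above the lowest level had a median of -0.042, with 10 positive and 12 negative.

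Of 35 further interferon-induced genes described here, 33 had a row, none of these 33 was called, and 3 had an unadjusted p under 0.05. Sp100, a nuclear body protein, stood at -6.44 at a mean log2 CPM of -1.32 in the authors' deposited table (p = 0.0103, adjusted p = 0.672). Lgals9, a galectin, stood at -1.20 (p = 0.0382, adjusted p = 0.966) and Gbp3, a guanylate-binding protein, at 1.43 (p = 0.0492, adjusted p = 0.989) in the authors' deposited table. The 33 had a median of 0.094, with 18 positive and 15 negative.

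Markers of other cells that the sort could hold were read at lower levels, by list median, than those of cortical neurons. The median log2 CPM was 1.97 for microglia markers, 0.66 for endothelial, 5.32 for progenitor and 8.38 for neuronal markers in the authors' deposited table. Of 12 microglia markers, 11 had negative fold changes, with a median of -1.03. Of the 12, 8 reached the median level, and 5 had an unadjusted p under 0.05, all lower in shNat14, with none called. C1qb, a complement subunit, had the smallest p of the list, at -1.62 in the authors' deposited table (p = 0.00169, adjusted p = 0.287). Of 8 endothelial markers, 7 had positive fold changes, with a median of 1.43, and 1 of the 8 reached the median level; rows between the lowest level and the median had a median absolute log2 fold change of 0.88. Emcn and Tek had an unadjusted p under 0.05, both higher, at 4.98 and 4.43 in the authors' deposited table. Cortical neuron markers had a median of 0.072 and progenitor markers of -0.0053, with no unadjusted p under 0.05 in either list. The 4 markers of T and NK cells and the 4 of neutrophils and monocytes also held none with an unadjusted p under 0.05. The part of microglia and endothelium in the values of Cxcl10, Irf8 (-1.51, p = 0.0864 in the authors' deposited table) and the other genes was not tested.

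**Figure D4:**
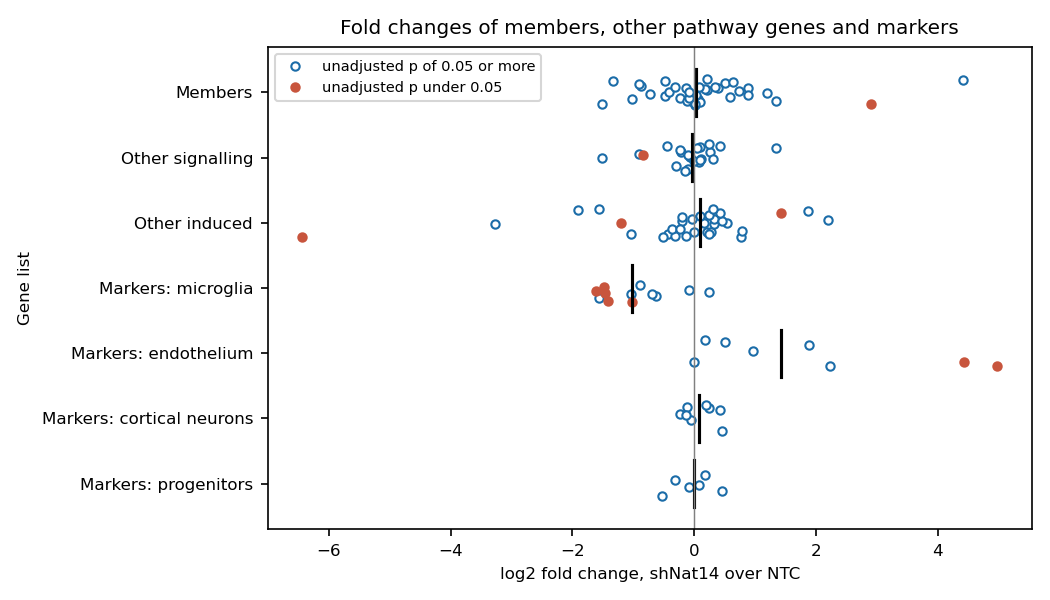
Log2 fold change of shNat14 over NTC in the authors' deposited table (horizontal axis) for the 37 measured genes, the 2 lists of further pathway genes and 4 lists of cell type markers (vertical axis); genes at the lowest level are left out. Filled points have an unadjusted p under 0.05 and vertical bars are list medians; the microglia bar stands at -1.03, the endothelium bar at 1.43 and the members' bar at 0.027.

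The approximate standard error, read back here for genes below the median level too, differed in value between roles. It depends on the authors' unknown test, so it is not a measure of the spread between libraries alone. For each gene with a p under 1 the approximate standard error was ranked among the 500 rows nearest in mean level, so that 50 is the typical percentile at that level. The 14 RNA sensors, receptors and factors had a median percentile of 48.8, whereas the 19 OAS genes and induced effectors had a median of 69.4. In that second set 9 of 19 lay above the 80th percentile, against 1 of 14 in the first. Ifit1 stood at the 94th percentile, Oasl2 at 93.4, Usp18 at 90.6 and Rsad2 at 88.4, and Cxcl10 stood at the 91st. Exceptions were Isg20 at 2.2 and Bst2 at 17.6.

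**Figure D5:**
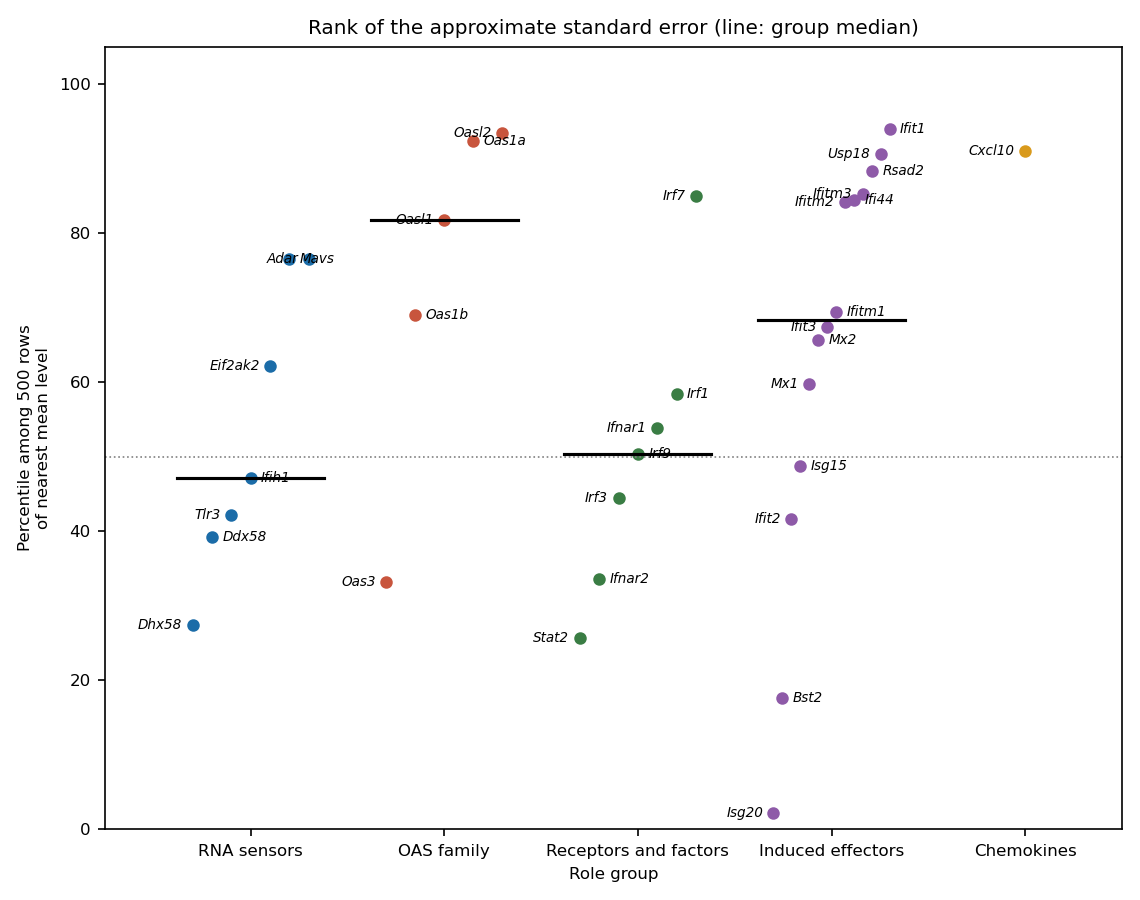
Percentile of the approximate standard error of each gene among the 500 rows of nearest mean level (vertical axis), by role group (horizontal axis); bars are group medians and the dotted line is 50. The OAS family has a median of 81.8 and the induced effectors 68.4, with RNA sensors at 47.2 and receptors and factors at 50.4.

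The ranking was chosen after the data were seen, is a description with no test, and rests on genes of which many were read at low levels. Members with a p above 0.9, Usp18 among them, have an unstable standard error of this kind. Without them the medians were 47.2 for 13 sensors, receptors and factors and 68.2 for 16 OAS genes and effectors. Of these 16, 6 lay above the 80th percentile, against 1 of the 13. Rows of other genes with a p above 0.9 and under 1 stayed among the 500 compared. The spread between libraries itself cannot be seen without values per library.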

How the data were processed

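RNA sequencing of sorted cortical cells gave 3 shNat14 and 3 NTC libraries, grouped by sample title. The authors' table of their comparison was used as deposited. Its log2 columns hold, per the file headers, the fold change and the mean CPM of each gene, and its p-value columns hold the deposited p and false discovery rate (the adjusted p). The tools listed in the submitters' processing notes, with no roles, are HTSeq 0.5.4p1, TopHat2 2.0.8, DESeq and SAMtools 0.1.19. The column names of the table are not those that DESeq writes, so which test gave the p-values is unresolved. The human build hg19 is listed there although the samples are mouse, so the true build is open. How the authors normalized and filtered is not stated in the sources, and depth per library is unknown.

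Genes were matched by symbol. In 25 rows the symbol had become a date, and these rows stayed in all counts. Rows at the lowest level, 4537 in all, were left out of medians of fold changes and of ranks. They were kept in the median level of 1.71, which was taken over all 21937 rows. Over the 17400 rows above the lowest level the median was a log2 CPM of 3.32. Calls are at the authors' adjusted p under 0.05 over all rows, from a test fitted across all genes. An approximate standard error is the absolute log2 fold change divided by the normal quantile of the two-sided p, and the 95% interval uses it. It treats the p as that of a normal test, which the authors' test may not be: Ccl5, for example, has a p of 1 with a fold change other than 0. The calculation was tested only on simulated normal values, which does not show how well it approximates the authors' test. Exon lengths and overlaps came from GENCODE M21, and promoters from RefSeq. The genes, the lists of further pathway genes and the rule for naming genes were chosen with earlier results of these data known. By that rule every gene of the 38 is accounted for, and of other pathway genes those called, those with an unadjusted p under 0.05 and those with the 2 smallest p-values in a list are named. Others named, such as Irf8 and Art3, were chosen after their values were seen. Some further genes of the lists are not reported here, and the counts leave them out, so that a count of 0 called genes holds only for the genes described. Software was Python 3.11.15 with numpy 2.4.6, scipy 1.17.1, pandas 2.3.3 and matplotlib 3.10.9.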

Additional observations from a re-analysis of the deposited data

How the results depend on the processing

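No gene of the 38 was called under any adjusted alternative tried: adjusted p under 0.1 or 0.01, Benjamini-Hochberg recomputed over all rows, over rows above the lowest level or over rows that reach the median level, Bonferroni correction, or Ifi27l1 counted as Ifi27, the last chosen after the data were seen. With an unadjusted p under 0.05 the count was 1. Over all genes, 34 calls became 55 at adjusted p under 0.1, 43 when adjusted over genes above the lowest level, 19 at adjusted p under 0.01, 17 after Bonferroni correction, 16 when the adjustment took only genes reaching the median level, and 1105 at unadjusted p. The median log2 fold change of the members, 0.027 as deposited, was 0.062 for those at or above 10 CPM and -0.0049 after re-centring on genes that reach the median level, a shift of 0.032 that changed the sign of 3 members. No paired analysis was possible because the deposited comparison gives 1 value per gene, and leaving out each replicate was not run for the same reason.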
